A study of Mus musculus with 2 samples.

Results

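The Hox genes of mouse lumbar dorsal root ganglia were examined as a set of 39 genes out of 31253 in the deposited tables. They were chosen by name alone, as every symbol made of Hoxa, Hoxb, Hoxc or Hoxd and a number, so no measured value entered the choice. Hoxa has 11 of them on chromosome 6, Hoxb 10 on chromosome 11 (96194316 to 96368256 in build mm10), Hoxc 9 on chromosome 15 (102921103 to 103036852) and Hoxd 9 on chromosome 2 (74668310 to 74765142).

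Both libraries, called replicates 1 and 2, were 10x Genomics 3′ single-cell libraries of L4-5 ganglia from 8-week-old wildtype mice of the acetone-ether-water (AEW) group. AEW treatment dries the skin and serves as a model of dry-skin itch. The labels do not say whether the replicates came from separate animals, so the p-values measure only how differences between classes varied between these libraries. Untreated ganglia are not analysed here. Comparisons were therefore made between cell types within the AEW ganglia. The labels call the cells neurons, but enzymatic dissociation and a slow spin, with no sort, also carried over the glia, vessel cells and connective tissue cells of the ganglion.

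Hox genes encode homeodomain transcription factors that mark position along the head-to-tail axis. Within a cluster, genes of low paralog number are switched on in more anterior parts of the embryo and genes of high number in more posterior parts, and many adult cells keep the combination set in the embryo. In the spinal cord and its ganglia, this combination helps to give neurons of each level their identity and connections. Paralog groups 9 to 11 are linked to levels from thoracic to sacral. Hox proteins bind DNA together with partners of the Pbx, Meis and Pknox families, and Polycomb and Trithorax proteins hold the genes silent or active.

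Replicates 1 and 2 held 8818 and 11767 barcodes with 113251556 and 102347251 UMIs (unique molecular identifiers, each a counted transcript molecule), and 24 barcodes occurred in both. Classes were gated on fixed marker genes that include no Hox gene, and a class name stands for cells that resemble that type by those markers. The classes described held 621 and 993 neurons with a median of 103643 and 51929 UMIs, 2395 and 2708 satellite glia, 1037 and 591 myelinating Schwann cells, 349 and 251 non-myelinating Schwann cells, 258 and 462 fibroblasts, 280 and 318 mural cells, and 347 and 726 endothelial cells. The neuron markers summed to 167 and 173 UMIs per 10000 in neurons, and to between 11.2 and 45.3 in the glial, fibroblast, mural and endothelial classes, so neuronal RNA was present in those classes. Macrophages, neutrophils, B cells and erythroid cells, called the blood-derived classes here, were taken as a guide to the level that free RNA may reach. Whether their Hox UMIs came from free RNA or from the cells themselves was not tested. Their summed Hox level lay between 0.429 and 1.30 UMIs per 10000 in a library.

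Of the 39 genes, 4 had no UMI in the kept barcodes, namely Hoxa13, Hoxc12, Hoxc13 and Hoxd12. Hoxb1, Hoxb13 and Hoxd13 had 2, 1 and 1 UMIs, and 32 genes had at least 10. In 26 genes the counts passed the filter on low values in each fit, and the other 13 were not tested. Hoxa2, Hoxa6 and Hoxd3 were among the genes not tested in either fit, while Hoxa4 and Hoxc11 were tested between neuron types alone and Hoxa11 and Hoxc5 between classes alone. Exons of 9 genes overlap another gene on the same strand, among them the pairs Hoxc5 with Hoxc10 and Hoxd3 with Hoxd4, so the split of counts within those pairs is uncertain. Antisense genes overlap 10 members, Hoxa7, Hoxb2, Hoxb3, Hoxb5, Hoxa11 and Hoxd4 among them, and whether the counting used strand is not given in the sources used here.

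The Hox pattern of neurons reached group 11, and the groups beyond it were at 1 UMI in each library. A 3′ library counts each molecule by its tail, so levels are UMIs per 10000 UMIs of the class, without scaling by gene length, and can be set side by side between genes only on that scale. Paralog groups 9 to 11 summed to 1.89 and 2.34 UMIs per 10000 in neurons of replicates 1 and 2, groups 4 to 8 to 2.37 and 2.71, and groups 1 to 3 to 0.296 and 0.341. Groups 12 and 13 together were at 0.000148 and 0.000198, the level of that single UMI. Groups 9 to 11 thus made up 41.5% and 43.4% of the Hox UMIs of neurons. Over all 39 genes, neurons had 4.55 and 5.39 UMIs per 10000.

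The highest Hox gene of neurons was Hoxa7, a gene of thoracic vertebral patterning, at 0.806 and 0.869 UMIs per 10000. Hoxb5, which in the mouse acts in neural crest derivatives of the gut, followed at 0.501 and 0.695, then Hoxa9 at 0.507 and 0.563 and Hoxa10, which patterns lumbar vertebrae and hindlimb motor neurons, at 0.389 and 0.523. Hoxc9, which in the spinal cord sets thoracic motor neuron identity, was at 0.359 and 0.342. In the blood-derived classes taken as a background (macrophages, neutrophils, B cells and erythroid cells) the mean level of Hoxa7 was at most 0.267 and that of Hoxb5 at most 0.0672 UMIs per 10000.

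The summed level of all Hox genes was higher in vessel and connective tissue classes than in neurons taken as 1 class or in glia. Mural cells, the pericytes and smooth muscle cells of vessel walls, had 9.87 and 7.75 UMIs per 10000, endothelial cells 8.24 and 6.83 and fibroblasts 8.37 and 7.06. These 3 classes overlapped each other across the libraries and lay above neurons as a whole and above every glial class, while a small Trpm8 neuron type, at 7.32 and 8.43, overlapped them. Satellite glia, which wrap neuron cell bodies, had 3.46 and 4.34 UMIs per 10000, non-myelinating Schwann cells 3.78 and 3.72, and myelinating Schwann cells 1.99 and 2.55. Myelinating Schwann cells were the lowest of these classes, and all of them lay above the range of these blood-derived classes. T or NK cells, of which only 8 and 31 were found, were not counted in that range and had 2.85 and 1.83, which overlapped myelinating Schwann cells.

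**Figure D1:**
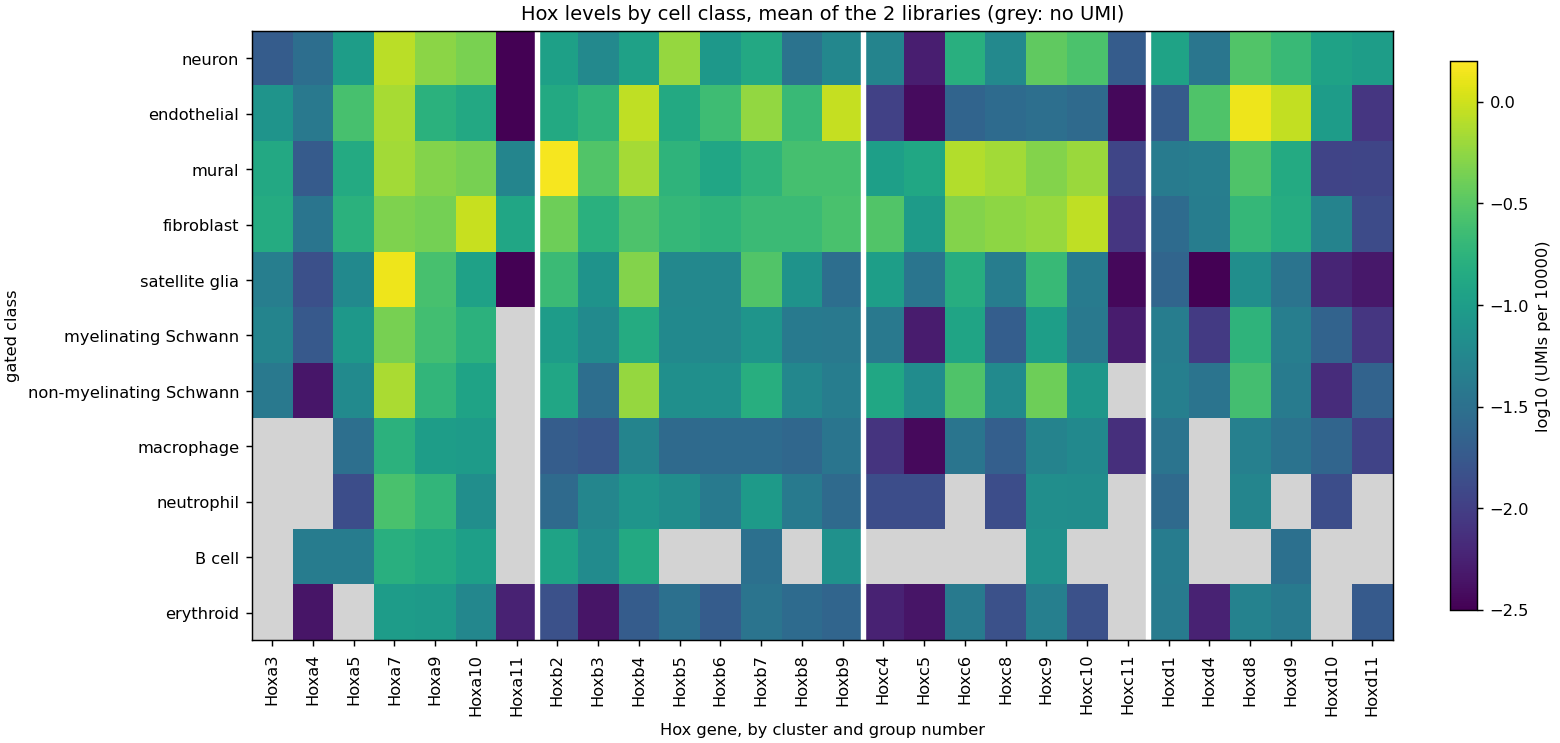
Level of each Hox gene tested in either fit (columns, by cluster and paralog number) in each gated class (rows), as the log10 of the mean over both libraries in UMIs per 10000, from dark (low) to yellow (high), with values under -2.5 drawn at that limit and grey for no UMI. Hoxa11 is grey or dark outside mural cells and fibroblasts, and the Hoxc genes are dark in endothelial cells beside mural cells and fibroblasts.

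At a matched depth, the share of cells with a Hox UMI had a similar order. At 1 depth that share largely follows from the summed level, so it is no separate support for the order. After each cell was thinned to 2000 UMIs, at least 1 Hox UMI was found in 85.9% and 75.5% of mural cells, 78.0% and 72.7% of endothelial cells, 73.5% and 69.8% of fibroblasts, and 58.1% and 63.8% of neurons. Satellite glia reached 51.0% and 59.0%, non-myelinating Schwann cells 52.6% and 51.7%, and myelinating Schwann cells 32.4% and 36.4%. Among the classes taken as a guide to free RNA, macrophages reached 13.6% and 19.7% at the same depth, with a median of 4421.5 and 4144.5 UMIs per cell before thinning, and neutrophils 25.8% and 22.0%. The few T or NK cells reached 37.5% and 32.3%, which overlapped the share in myelinating Schwann cells. Without thinning, the shares were 99.8% and 99.1% in neurons, 96.4% and 92.1% in mural cells and 25.8% and 37.1% in macrophages.

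The 4 clusters were used in different proportions. Hoxc genes summed to 3.40 and 2.23 UMIs per 10000 in mural cells and 3.27 and 2.57 in fibroblasts, and to 0.133 and 0.120 in endothelial cells. The endothelial Hoxc level was below macrophages, at 0.168 and 0.205, and above B cells, at 0.0856 and 0.0627. It lay within the range of the blood-derived classes, from 0.0463 in erythroid cells of replicate 1 to 0.219 in neutrophils of replicate 2. Hoxd genes ran the other way, with 3.14 and 2.26 UMIs per 10000 in endothelial cells, 0.446 and 0.635 in mural cells and 0.496 and 0.467 in fibroblasts. Neurons had 0.776 and 0.971 for Hoxd and 0.879 and 0.951 for Hoxc. In both libraries endothelial cells were highest for Hoxd and lowest for Hoxc among the 7 classes.

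**Figure D2:**
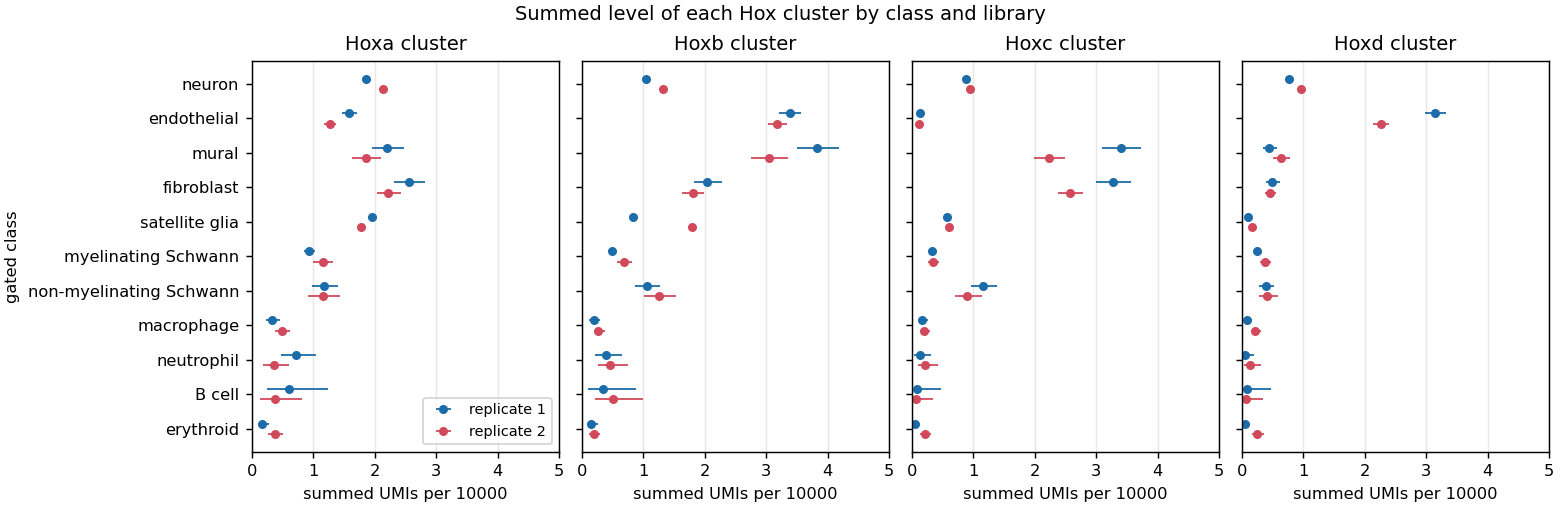
Summed UMIs per 10000 of the Hoxa, Hoxb, Hoxc and Hoxd genes in each gated class, with a point for each library and bars for the 95% Poisson interval, which covers counting error only. Endothelial cells sit at 3.14 and 2.26 for Hoxd and at 0.133 and 0.120 for Hoxc, while fibroblasts sit at 0.496 and 0.467 for Hoxd and at 3.27 and 2.57 for Hoxc.

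Neurons were next compared with glia, which share their neural crest origin. In the fit, glia were the mean of satellite glia and both Schwann classes on the log scale. The levels printed for glia, and below for Schwann cells, are arithmetic means of the class levels. They need not match the fitted fold change. Of the 26 genes tested, 11 were higher and 5 lower in neurons at an adjusted p under 0.05 in edgeR's quasi-likelihood test, with p-values adjusted over all 13162 genes. Over all genes tested, 64.7% were called in this comparison (31.9% higher and 32.8% lower), near the 61.5% of the Hox genes tested, so the number of calls says nothing particular about Hox. The median log2 fold change was 0.49 over the Hox genes tested and 0.0051 over all genes.

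Hoxb5 had 0.501 and 0.695 UMIs per 10000 in neurons of replicates 1 and 2, against 0.0525 and 0.0724 in glia. The glial level was within the range of the blood-derived classes and did not overlap the neuronal one. The log2 fold change was 3.21 ± 0.20 (SE, n = 2 libraries; edgeR adjusted p = 5.98e-11). Hoxd10, a lumbar motor neuron gene, had 0.0818 and 0.144 in neurons, against 0.00328 and 0.0207 in glia, a log2 fold change of 3.59 ± 0.44 (edgeR adjusted p = 9.66e-07). Hoxd11, linked to sacral vertebrae and the distal limb, had 0.0864 and 0.115 in neurons, against 0.0110 and 0.0133 in glia (log2 fold change 3.20 ± 0.43, edgeR adjusted p = 3.22e-06). For both genes neurons were higher in each library, and glia were at or under the 0.0243 and 0.0182 UMIs per 10000 reached by the highest blood-derived class.

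Other genes of groups 9 to 11 were on the neuronal side too. Hoxc10 had 0.218 and 0.321 UMIs per 10000 in neurons, against 0.0463 and 0.0649 in glia (log2 fold change 2.28 ± 0.20, edgeR adjusted p = 9.05e-09). Hoxd9 had 0.177 and 0.245 in neurons, against 0.0267 and 0.0544 in glia, and Hoxa10 had 0.389 and 0.523 in neurons, against 0.132 in glia of each library. The log2 fold changes of Hoxd9 and Hoxa10 were 2.36 ± 0.29 and 1.73 ± 0.20. Hoxa9, Hoxc9, Hoxd8, Hoxd4 and Hoxd1 also rose, by 0.71 to 2.01 on the log2 scale. For Hoxc9 the rise did not hold against each glial class. Non-myelinating Schwann cells, with 50 and 25 Hoxc9 UMIs among 1079411 and 720843, lay above neurons within each library. Hoxd4 depended on the library, with a log2 ratio of 3.08 in replicate 1 alone and 1.12 in replicate 2 alone. Of the 9 genes of groups 9 to 11 that were tested, the call rule took 7 as higher in neurons and none as lower, beside 31.9% higher and 32.8% lower over all genes.

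The genes lower in neurons were of groups 3 to 8. Hoxb4 had 0.0964 and 0.123 UMIs per 10000 in neurons, against 0.215 and 0.613 in glia, and the log2 fold change was -1.59 ± 0.37 (edgeR adjusted p = 0.000909). Glia of replicate 2 were far above glia of replicate 1 for this gene, and its log2 ratio was -0.93 in replicate 1 alone and -2.08 in replicate 2 alone. Hoxa3, which acts in pharyngeal neural crest, fell by 1.30 on the log2 scale, Hoxc5 by 2.14, Hoxb8 by 0.82 and Hoxc4 by 0.77. The Hoxc4 call was lost with the stricter marker gate and with a minimum of 1000 genes per barcode (edgeR adjusted p = 0.101 and 0.0629), and its log2 ratio was -0.98 in replicate 1 alone and -0.25 in replicate 2 alone. Hoxa7 had 0.806 and 0.869 UMIs per 10000 in neurons, against 0.850 and 0.827 in glia, and was not called (log2 fold change 0.07 ± 0.18, edgeR adjusted p = 0.770).

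Within glia, satellite cells were called higher than Schwann cells in Hoxa7 and 4 Hoxb genes and lower in Hoxd8 and Hoxd4. Of the Hox genes tested, 5 were higher and 2 lower in satellite glia, 26.9% against 25.9% of all genes (15.8% higher and 10.1% lower). The medians were log2 fold changes of 0.26 over the Hox genes tested and 0.087 over all genes. Hoxa7 had 1.46 and 1.24 UMIs per 10000 in satellite glia, against 0.546 and 0.619 in Schwann cells, and the log2 fold change was 1.56 ± 0.20 (edgeR adjusted p = 4.32e-06). Hoxb7 had 0.292 and 0.295 in satellite glia, against 0.136 and 0.103 in Schwann cells (log2 fold change 1.66 ± 0.24, edgeR adjusted p = 2.21e-05). Neither gene overlapped between the groups. By the mean over the libraries, the 5 highest Hox genes were Hoxa7, Hoxb4, Hoxb7, Hoxa9 and Hoxb2 in satellite glia, Hoxa7, Hoxa9, Hoxd8, Hoxa10 and Hoxb4 in myelinating Schwann cells, and Hoxa7, Hoxb4, Hoxc9, Hoxc6 and Hoxd8 in non-myelinating Schwann cells. Hoxd8 had 0.0607 and 0.0752 in satellite glia, against 0.205 and 0.225 in Schwann cells, a log2 fold change of -1.34 ± 0.21 (edgeR adjusted p = 6.94e-05). Hoxb2 rose by 1.24 and Hoxb8 by 0.99 on the log2 scale, with Hoxb2 at 0.69 in replicate 1 alone and 1.72 in replicate 2 alone. Hoxb3 (log2 fold change 1.19 ± 0.41, edgeR adjusted p = 0.0367) was called in 4 of 10 alternative analyses and Hoxd4 (-2.63 ± 0.89, edgeR adjusted p = 0.0382) in 7, and Hoxd4 had only 0 and 8 UMIs in satellite glia, with log2 ratios of -4.58 in replicate 1 alone and -1.87 in replicate 2 alone.

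Fibroblasts had the highest level of groups 9 to 11 among the 7 classes, at 3.70 and 3.24 UMIs per 10000. Non-myelinating Schwann cells, the highest of the glia, had 0.936 and 0.888. Within the classes, the small Trpm8 neuron type lay above fibroblasts in each library, at 3.76 and 4.02. Pericytes had 3.72 and 2.39. Against glia, 20 of the 26 genes tested were higher and 1 was lower in fibroblasts, 80.8% called against 29.5% of all genes (17.4% higher and 12.1% lower). The median log2 fold change was 1.73 over the Hox genes tested and 0.0033 over all genes. Fibroblasts showed Hoxa10 at 1.12 and 0.781 UMIs per 10000, against 0.132 in glia of each library, with a log2 fold change of 2.91 ± 0.21 (edgeR adjusted p = 5.69e-10). Hoxc10 had 0.896 and 0.860 in fibroblasts, against 0.0463 and 0.0649 in glia (log2 fold change 4.15 ± 0.21, edgeR adjusted p = 6.72e-12). Hoxc8, which in the spinal cord patterns brachial motor neurons, had 0.585 and 0.515 in fibroblasts, against 0.0412 and 0.0436 in glia (log2 fold change 4.0 ± 0.28, edgeR adjusted p = 8.70e-10). In each case both libraries of fibroblasts lay above both libraries of glia. Hoxc9, at 0.655 and 0.545, and Hoxc6, at 0.667 and 0.332, completed the 5 highest genes of fibroblasts.

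Hoxa11, a gene of the sacral skeleton and the middle limb, was detected mainly in fibroblasts and mural cells. It had 0.159 and 0.0916 UMIs per 10000 in fibroblasts, from 25 and 21 UMIs, against 0 and 2 UMIs in the much larger sum of glia. Pooled over both libraries the fibroblast level was 279 times the glial one, with a 95% counting interval of 73.0 to 2.37e+03. Mural cells held 6 and 8 Hoxa11 UMIs, and neurons 0 and 1. Hoxb9 (log2 fold change 2.91 ± 0.25), Hoxd10 (2.57 ± 0.69), Hoxd4 (2.37 ± 0.71), Hoxc5 (2.07 ± 0.52) and Hoxb8 (2.04 ± 0.27) also rose in fibroblasts, and Hoxd9, Hoxc4, Hoxa3, Hoxb5, Hoxb3, Hoxc9, Hoxb6, Hoxb2, Hoxc6, Hoxa5 and Hoxa9 rose by 0.98 to 1.97. For Hoxc5, Hoxd4 and Hoxd10 the log2 ratios were 2.58, 3.64 and 4.53 in replicate 1 alone, and 1.34, 1.30 and 1.40 in replicate 2 alone. Hoxa7 alone was called lower (-0.60 ± 0.22, edgeR adjusted p = 0.0426), a call kept in 7 of 10 alternative analyses. Fibroblast markers summed to 502 and 409 UMIs per 10000 in fibroblasts and to 8.95 and 7.56 in mural cells.

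Few Hox genes were called between mural cells and fibroblasts, which does not show that their levels were alike. Against fibroblasts, 1 gene was higher and 2 were lower in mural cells among the 26 tested, 11.5% against 22.0% of all genes (10.2% higher and 11.8% lower). The medians were log2 fold changes of -0.14 over the Hox genes tested and -0.0037 over all genes. Hoxb2, a hindbrain gene that shapes facial motor neurons, had 1.59 and 1.32 UMIs per 10000 in mural cells, against 0.458 and 0.340 in fibroblasts. The libraries did not overlap, and the log2 fold change was 1.8 ± 0.27 (edgeR adjusted p = 3.05e-05). Groups 1 to 3, which hold this gene, summed to 2.17 and 1.78 in mural cells, against 0.845 and 0.716 in fibroblasts. Hoxa10 had 0.514 and 0.367 in mural cells, against 1.12 and 0.781 in fibroblasts (log2 fold change -1.18 ± 0.26, edgeR adjusted p = 0.00211). Hoxc4 had 0.129 and 0.0842 in mural cells, against 0.324 and 0.262 in fibroblasts (-1.54 ± 0.42, edgeR adjusted p = 0.0105). After Hoxb2, the highest genes of mural cells were Hoxc6 at 1.07 and 0.467, Hoxb4 at 0.658 and 0.727, Hoxa7 at 0.756 and 0.597 and Hoxc8 at 0.741 and 0.582. Among mural cells, Hoxb2 was at 1.29 and 0.962 UMIs per 10000 in pericytes and 1.74 and 1.54 in vascular smooth muscle cells, and Hoxc8 at 1.38 and 0.770 in pericytes and 0.402 and 0.393 in vascular smooth muscle cells. The difference between those mural types was not tested.

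Endothelial cells were higher than fibroblasts in Hoxd8, Hoxd9, Hoxd4, Hoxb9, Hoxb7 and Hoxb4, with summed Hoxc within the range of the blood-derived classes. Against fibroblasts, 6 of the 26 genes tested were higher and 10 lower in endothelial cells, 61.5% called against 37.5% of all genes (19.4% higher and 18.1% lower). The median log2 fold change was -0.51 over the Hox genes tested and 0.0067 over all genes. Hoxd8 had 1.65 and 1.09 UMIs per 10000 in endothelial cells, against 0.197 and 0.201 in fibroblasts, with a log2 fold change of 2.78 ± 0.22 (edgeR adjusted p = 5.88e-09). Its neighbour Hoxd9 had 1.04 and 0.769 in endothelial cells, against 0.159 and 0.135 in fibroblasts (2.69 ± 0.35, edgeR adjusted p = 4.27e-06). Both genes were higher in every endothelial library than in any fibroblast, mural, glial or neuronal one. Hoxd4 had 0.300 and 0.275 in endothelial cells, against 0.0572 and 0.0305 in fibroblasts (2.78 ± 0.54, edgeR adjusted p = 0.000521). Hoxd3, which shares exons with Hoxd4, was not tested and had 9 and 10 UMIs in endothelial cells and none in fibroblasts.

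Of the 8 Hoxb genes tested, 3 were higher and 1 was lower in endothelial cells. Hoxb9 had 1.04 and 0.786 UMIs per 10000 in endothelial cells, against 0.242 and 0.292 in fibroblasts, with a log2 fold change of 1.77 ± 0.22 (edgeR adjusted p = 1.40e-06). Hoxb7 had 0.680 and 0.484 in endothelial cells, against 0.222 and 0.214 in fibroblasts (1.42 ± 0.26, edgeR adjusted p = 0.000205). Hoxb4 had 0.560 and 1.21 in endothelial cells, against 0.292 and 0.262 in fibroblasts (1.63 ± 0.48, edgeR adjusted p = 0.0104), a call kept in 8 of 10 alternatives, with log2 ratios of 0.90 in replicate 1 alone and 2.26 in replicate 2 alone. Hoxb4 differed between the endothelial libraries as well. Hoxb8, between Hoxb7 and Hoxb9 in the cluster, had 0.230 and 0.198 in endothelial cells, against 0.216 and 0.227 in fibroblasts, and was not called. Hoxa7, the fifth highest gene of endothelial cells after Hoxd8, Hoxb9, Hoxd9 and Hoxb4, was at 0.753 and 0.653 and was not called.

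All 6 Hoxc genes that were tested were lower in endothelial cells. Hoxc10 had 0.0300 and 0.0236 UMIs per 10000 in endothelial cells, against 0.896 and 0.860 in fibroblasts, a log2 fold change of -5.04 ± 0.31 (edgeR adjusted p = 1.53e-10). Hoxc9 had 0.0250 and 0.0364 in endothelial cells, against 0.655 and 0.545 in fibroblasts (-4.22 ± 0.32, edgeR adjusted p = 1.41e-09). The endothelial levels of both genes lay within or below the range of the blood-derived classes. Hoxc4, Hoxc8 and Hoxc6 had log2 fold changes of -4.75, -4.35 and -4.33, all called. Hoxc5 rested on 3 UMIs in endothelial cells against 34 in fibroblasts, a fibroblast level 27.8 times higher with a 95% counting interval of 8.76 to 142. Hoxa11, with 2 UMIs in endothelial cells against 46 in fibroblasts, was 56.5 times higher in fibroblasts (14.8 to 481), and the DESeq2 Wald test did not call it (DESeq2 adjusted p = 0.0508). Hoxa10 fell by 2.82, Hoxb2 by 1.51 and Hoxa9 by 1.39 on the log2 scale.

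The promoters of Hoxd8 and Hoxd9 are shown because these neighbouring genes moved together in endothelial cells. The sequences are RefSeq promoters in build GRCm38.p6, from 250 bases before to 50 after the annotated start, read 5′ to 3′ on the plus strand. They lie at chr2:74704365-74704664 for Hoxd8 and chr2:74697513-74697812 for Hoxd9. Each was searched on both strands for TGACAG, a Meis motif, and TGATNNAT, a composite Pbx-Hox motif, and neither motif was present, so no base is in capitals.
Hoxd8: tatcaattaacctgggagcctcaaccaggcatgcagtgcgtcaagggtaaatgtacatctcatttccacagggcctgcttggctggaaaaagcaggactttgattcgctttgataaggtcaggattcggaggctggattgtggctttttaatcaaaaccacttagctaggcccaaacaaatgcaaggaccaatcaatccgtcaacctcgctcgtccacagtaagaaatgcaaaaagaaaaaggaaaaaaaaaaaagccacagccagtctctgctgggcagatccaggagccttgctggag
Hoxd9: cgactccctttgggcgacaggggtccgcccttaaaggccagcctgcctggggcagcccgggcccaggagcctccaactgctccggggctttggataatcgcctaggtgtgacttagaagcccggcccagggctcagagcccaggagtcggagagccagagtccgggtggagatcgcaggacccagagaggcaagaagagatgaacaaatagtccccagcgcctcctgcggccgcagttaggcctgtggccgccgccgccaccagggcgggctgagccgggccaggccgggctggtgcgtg
The GC content was 46.7% in the Hoxd8 promoter and 68.3% in the Hoxd9 promoter. The RefSeq table held 24 promoters of 22 Hox genes. TGATNNAT was found in 4 of these 24 promoters (16.7%), of Hoxa2, Hoxb1, Hoxb8 and Hoxd11, and in 8.85% of all 32851 promoters, and TGACAG in 2 of 24 (8.33%) and in 19.2% of all. The promoters of Hox genes had a median GC content of 57.7% and 14.5 CpG dinucleotides, against 52.7% and 7 over all promoters.

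**Figure D3:**
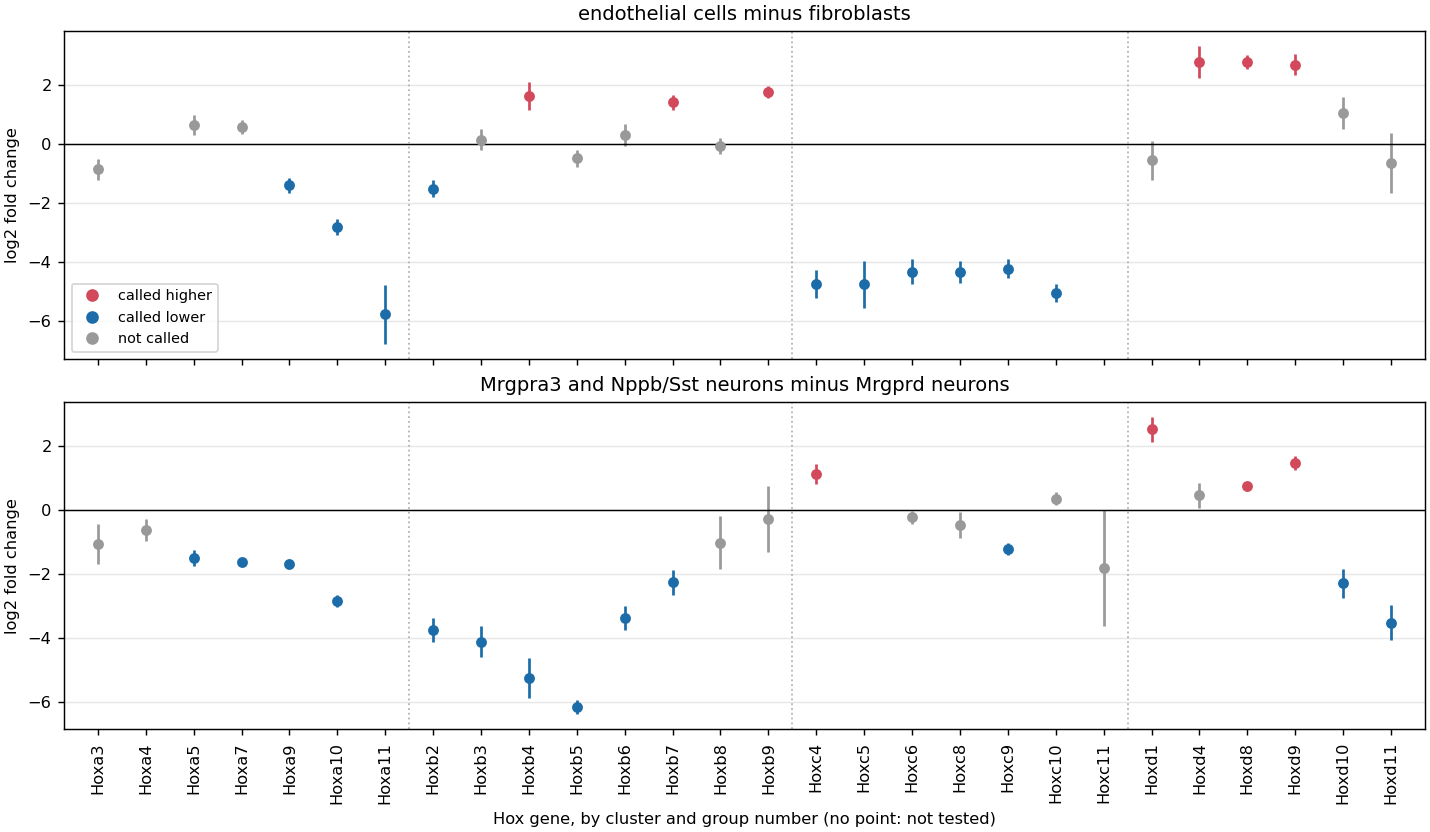
Log2 fold change ± SE of each tested Hox gene in endothelial cells minus fibroblasts (upper panel) and in Mrgpra3 and Nppb/Sst neurons minus Mrgprd neurons (lower panel), with called genes marked. All 6 tested Hoxc genes lie below 0 in the upper panel, where Hoxa11 and Hoxc5 rest on 2 and 3 endothelial UMIs, and Hoxb5 lies lowest in the lower panel at -6.15.

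Sensory neuron types differed among themselves. Neurons were gated by markers into large A-fibre neurons (33 and 42 cells), peptidergic A-delta neurons (30 and 35), peptidergic C neurons (167 and 296), Mrgprd non-peptidergic nociceptors (149 and 182), the Mrgpra3 and Nppb/Sst itch neurons (26 and 24, and 32 and 38), Th low-threshold C-fibre neurons (55 and 161) and a Trpm8 type (32 and 16), which was too small for the fit. As a check, Nefh, a neurofilament of large fibres, was at 30.7 and 23.6 UMIs per 10000 in large A-fibre neurons, against 1.34 and 1.22 in Mrgprd neurons. The summed Hox level was 4.68 and 5.31 in large A-fibre neurons, 5.13 and 5.70 in peptidergic A-delta neurons, 5.21 and 5.43 in peptidergic C neurons, 5.58 and 6.82 in Th neurons, 4.28 and 5.11 in Mrgprd neurons and 7.32 and 8.43 in the Trpm8 type. Mrgpra3 neurons had 2.01 and 2.04 and Nppb/Sst neurons 2.10 and 2.42, below every library of the other types.

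**Figure D4:**
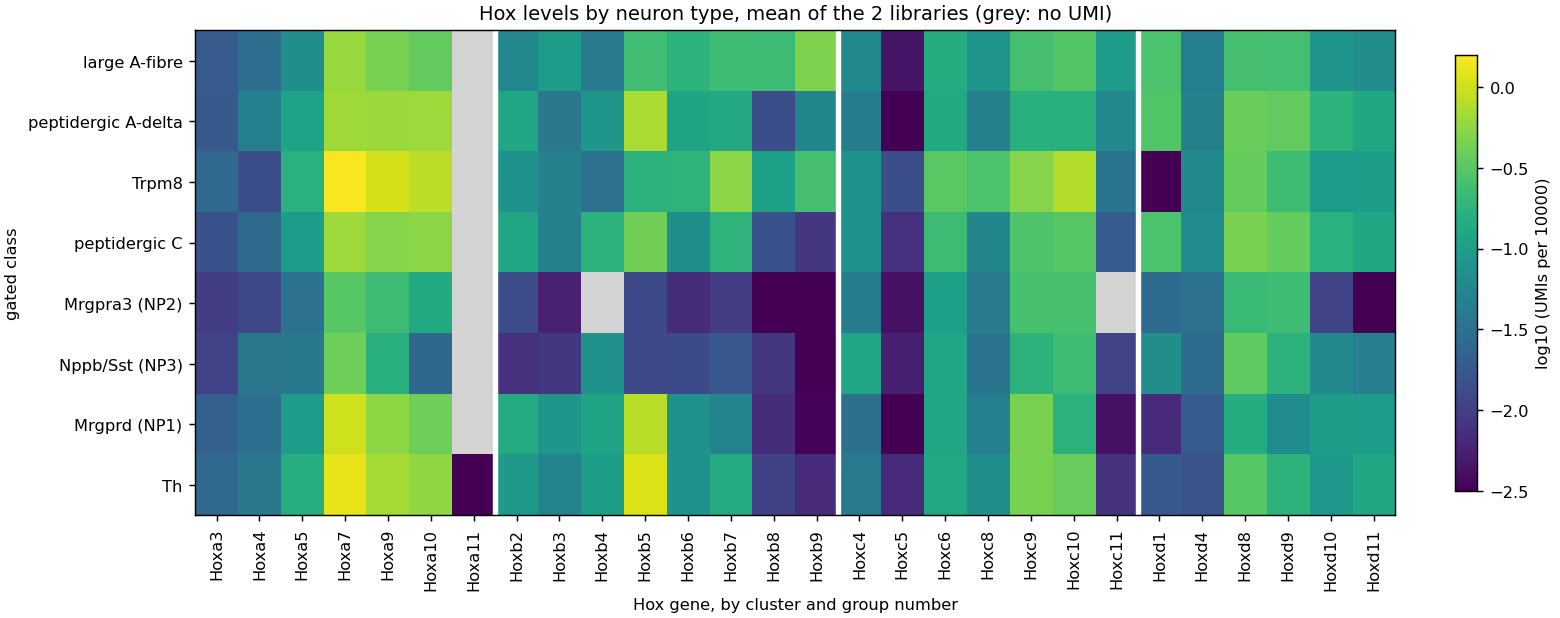
Level of each Hox gene tested in either fit, in each neuron type, as the log10 of the mean over both libraries in UMIs per 10000, from dark (low) to yellow (high), with values under -2.5 drawn at that limit and grey for no UMI. Most Hoxb genes are dark or grey in the Mrgpra3 and Nppb/Sst rows, and Hoxb9 is brightest in the large A-fibre and Trpm8 rows.

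Large A-fibre neurons, which carry touch and body position, were higher in Hoxb6, Hoxb7, Hoxb8 and Hoxb9 than the mean of C-fibre neurons. In the fit, C-fibre neurons were the mean of the Mrgprd, Mrgpra3, Nppb/Sst, Th and peptidergic C types on the log scale. The levels printed for C-fibre neurons are arithmetic means of these types and need not match the fitted fold change. Of the 26 genes tested, 9 were higher and 0 lower in large A-fibre neurons by edgeR, 34.6% against 50.3% of all 12530 genes tested (27.5% higher and 22.7% lower). The medians were log2 fold changes of 0.34 over the Hox genes tested and -0.0034 over all genes. No Hox gene was lower at an unadjusted p under 0.05 either. The DESeq2 Wald test, on the same log-scale mean, also gave 9 higher and 0 lower, with its share over all genes not counted. That mean gives full weight to the Mrgpra3 and Nppb/Sst types, which were low in many Hox genes. Summed Hoxa was at 1.37 and 1.69 UMIs per 10000 in large A-fibre neurons. In each library it was higher in Mrgprd (1.94 and 2.31), Th (2.58 and 2.94) and peptidergic C neurons (1.82 and 1.87). It was lower in Mrgpra3 (0.732 and 0.763) and Nppb/Sst neurons (0.662 and 0.710).

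Hoxb9 had 0.458 and 0.503 UMIs per 10000 in large A-fibre neurons, against 0.00357 and 0.00555 in C-fibre neurons, a log2 fold change of 6.68 ± 0.30 (edgeR adjusted p = 1.52e-10). Hoxb8, whose loss in mice causes excessive grooming and altered pain responses, had 0.243 and 0.205 in large A-fibre neurons, against 0.00556 and 0.0121 in C-fibre neurons (4.88 ± 0.33, edgeR adjusted p = 1.49e-08). Neither gene overlapped between the groups. In the Trpm8 type Hoxb9 was at 0.120 and 0.385 UMIs per 10000, and in peptidergic A-delta neurons at 0.0444 and 0.0662. After thinning to 20000 UMIs, Hoxb9 was found in 53.6% and 41.9% of large A-fibre neurons, against 0% and 0.637% of Mrgprd neurons.

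Hoxc11, a sacral-group gene, had 0.0325 and 0.160 UMIs per 10000 in large A-fibre neurons, from 10 and 36 UMIs, against 0.00482 and 0.0121 in C-fibre neurons (log2 fold change 4.22 ± 0.61, edgeR adjusted p = 5.92e-05). The large A-fibre libraries differed widely in it. Against the log-scale mean of C-fibre neurons, Hoxb6, Hoxb7 and Hoxb3 rose by 2.41, 2.21 and 1.98 on the log2 scale. All of them were also called lower in the Mrgpra3 and Nppb/Sst types than in Mrgprd neurons, a comparison given below. Hoxa10 was called higher by 0.61 ± 0.15 (edgeR adjusted p = 0.00425), but its mean levels overlapped, at 0.279 and 0.436 UMIs per 10000 in large A-fibre neurons against 0.287 and 0.379 in C-fibre neurons. Hoxb5 was called higher by 0.60 ± 0.20 (edgeR adjusted p = 0.0206), although the arithmetic mean level was lower in large A-fibre neurons, at 0.204 and 0.267, against 0.404 and 0.547 in C-fibre neurons. The fit averages the C-fibre types on the log scale, where the very low Mrgpra3 and Nppb/Sst types count fully, and the Hoxb5 call was kept in 6 of 9 alternatives, so no direction is given for either gene.

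Peptidergic C neurons, which release CGRP or substance P, were set against Mrgprd neurons, the non-peptidergic nociceptors. Of the 26 genes tested, 9 were higher and 4 lower in peptidergic C neurons, 50.0% against 45.6% of all genes tested (24.3% higher and 21.3% lower). As a median, the log2 fold change was 0.27 over the Hox genes tested and 0.036 over all genes. Hoxd1, which in the mouse is needed for nociceptors to form their normal endings, had 0.245 and 0.300 UMIs per 10000 in peptidergic C neurons, against 0.00701 and 0.00640 in Mrgprd neurons. The libraries were far apart, with a log2 fold change of 5.06 ± 0.29 (edgeR adjusted p = 5.29e-09). After thinning, 31.2% and 32.9% of peptidergic C neurons held a Hoxd1 UMI, against 0% and 1.91% of Mrgprd neurons. Hoxd1 was also at 0.266 and 0.285 UMIs per 10000 in large A-fibre neurons, and at 0.359 and 0.235 in peptidergic A-delta neurons. In large A-fibre neurons it was higher than the log-scale mean of C-fibre neurons (2.78 ± 0.21, edgeR adjusted p = 5.69e-08). The large A-fibre level overlapped that of peptidergic C neurons.

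Hoxd9 and Hoxd8 were higher in peptidergic C neurons as well. Hoxd9 had 0.330 and 0.393 UMIs per 10000 in peptidergic C neurons, against 0.0514 and 0.0800 in Mrgprd neurons (log2 fold change 2.26 ± 0.21, edgeR adjusted p = 5.02e-07). Hoxd8 had 0.460 and 0.454 in peptidergic C neurons, against 0.146 and 0.147 in Mrgprd neurons (1.41 ± 0.14, edgeR adjusted p = 1.25e-06). Hoxb7, Hoxd4 and Hoxc4 rose by 1.52, 1.45 and 1.10 on the log2 scale. Hoxc11 (2.01 ± 0.64), Hoxc10 (0.71 ± 0.21) and Hoxc6 (0.61 ± 0.19) were called too, each in 8 or 9 of 10 alternatives. In replicate 2 alone the log2 ratios of Hoxc4 and Hoxc10 were 0.64 and 0.34, and in replicate 1 alone 1.47 and 1.05. Hoxb5 had 0.361 and 0.464 in peptidergic C neurons, against 0.702 and 0.918 in Mrgprd neurons, and fell by 1.19 on the log2 scale (SE 0.15, edgeR adjusted p = 1.03e-05). Hoxb3, Hoxc9 and Hoxa7 fell by 1.05, 0.88 and 0.86.

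The Mrgpra3 and Nppb/Sst types, the itch-sensing C-fibre neurons, were compared with Mrgprd neurons after their low levels had been seen, so this test was chosen with the values known. Of the 26 genes tested, 4 were higher and 13 lower in the itch types, 65.4% against 28.2% of all genes tested (12.2% higher and 16.0% lower). The median log2 fold change was -1.37 over the Hox genes tested and -0.024 over all genes. The genes called lower included all 6 from Hoxb2 to Hoxb7. Of these, Hoxb4 overlapped between Nppb/Sst and Mrgprd neurons, and the Hoxb7 call did not hold for Nppb/Sst neurons alone under a stricter marker gate.

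Hoxb5 had 0.00819 and 0.0170 UMIs per 10000 in Mrgpra3 neurons and 0.0153 and 0.00966 in Nppb/Sst neurons, against 0.702 and 0.918 in Mrgprd neurons. Only 3 and 3 UMIs were found in Mrgpra3 neurons and 5 and 2 in Nppb/Sst neurons, against 1502 and 1148 in Mrgprd neurons. The log2 fold change was -6.15 ± 0.22 (edgeR adjusted p = 1.53e-10). After thinning to 20000 UMIs a Hoxb5 UMI was found in 4.17% and 4.35% of Mrgpra3 neurons, against 70.5% and 76.4% of Mrgprd neurons. Th neurons, the touch-sensing C fibres, were at 0.934 and 1.32 UMIs per 10000, so low Hoxb5 was not a feature of every other C-fibre type.

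Hoxb4 had no UMI in Mrgpra3 neurons and 0.0427 and 0.111 UMIs per 10000 in Nppb/Sst neurons, against 0.107 and 0.134 in Mrgprd neurons. The Nppb/Sst and Mrgprd libraries overlapped for this gene, so the fitted log2 fold change depends on the Mrgpra3 zeros and is not given. Hoxa10, by contrast, was lowest in Nppb/Sst neurons, at 0.0275 and 0.0241, with 0.104 and 0.181 in Mrgpra3 neurons, against 0.317 and 0.482 in Mrgprd neurons (log2 fold change -2.84 ± 0.18, edgeR adjusted p = 2.87e-08). Hoxb3, Hoxb2, Hoxd11, Hoxb6, Hoxd10 and Hoxb7 fell by 2.26 to 4.10 on the log2 scale. The log2 ratio of Hoxb2 was -3.11 in replicate 1 alone and -5.93 in replicate 2 alone, and that of Hoxd10 was -3.92 in replicate 1 alone and -1.69 in replicate 2 alone. Hoxa9, Hoxa7, Hoxa5 and Hoxc9 fell by 1.22 to 1.68.

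The itch types were not lower across the board. Hoxd9 had 0.169 and 0.288 UMIs per 10000 in Mrgpra3 neurons and 0.159 and 0.188 in Nppb/Sst neurons, against 0.0514 and 0.0800 in Mrgprd neurons (log2 fold change 1.45 ± 0.22, edgeR adjusted p = 0.000118). Hoxd1 rose by 2.52 ± 0.39, Hoxc4 by 1.13 ± 0.32 and Hoxd8 by 0.74 ± 0.14 on the log2 scale. All itch-type libraries were above both Mrgprd libraries for Hoxd9. With the stricter marker gate Mrgpra3 neurons numbered 17 and 17 cells and left the fit, so the comparison was of Nppb/Sst with Mrgprd neurons alone. There 4 Hox genes were higher and 12 lower, and the share of all genes called in that fit was not counted. Hoxb7 was not called there (log2 fold change -0.998, edgeR adjusted p = 0.165).

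**Figure D5:**
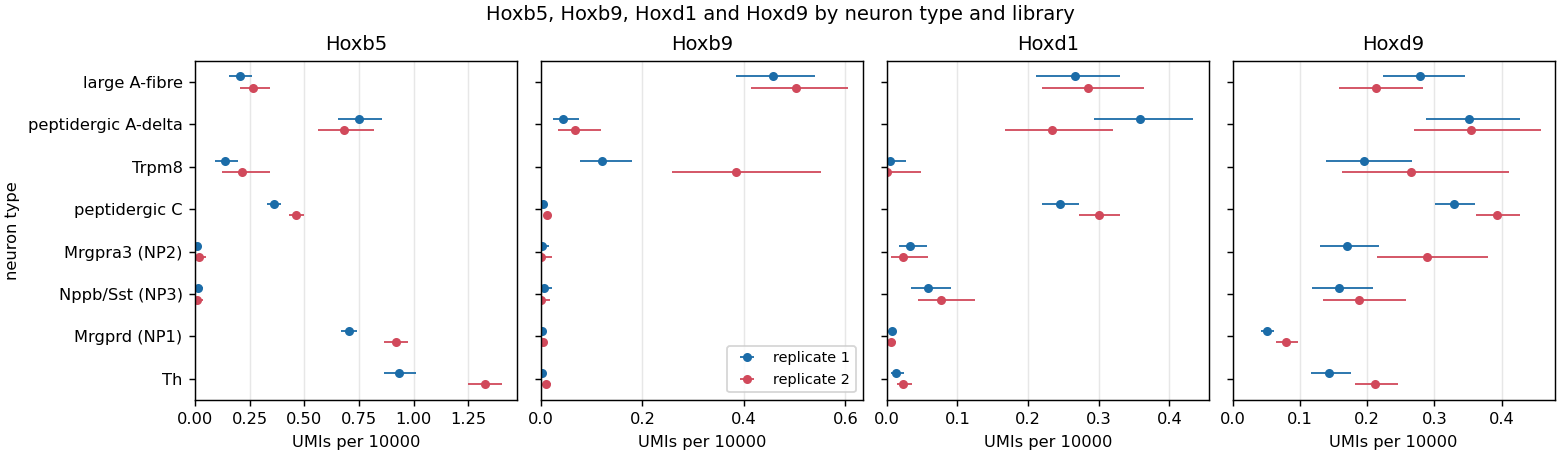
UMIs per 10000 of Hoxb5, Hoxb9, Hoxd1 and Hoxd9 in each neuron type and library, with 95% Poisson intervals that cover counting error only. Hoxb5 is lowest in the Mrgpra3 and Nppb/Sst types, Hoxb9 is highest in large A-fibre neurons at 0.458 and 0.503, and Hoxd1 is low in Mrgprd, Th and Trpm8 neurons.

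The promoters of Hoxb8 and Hoxd1 are shown because these genes separated neuron types. Both are RefSeq promoters in GRCm38.p6, read 5′ to 3′ on the plus strand, at chr11:96281655-96281954 for Hoxb8 and chr2:74762730-74763029 for Hoxd1. Capitals mark a match to TGATNNAT, read on the minus strand, which begins at position -11 from the Hoxb8 start. Hoxd1 held neither motif, and promoters of Hoxb5 and Hoxb9 are not shown.
Hoxb8: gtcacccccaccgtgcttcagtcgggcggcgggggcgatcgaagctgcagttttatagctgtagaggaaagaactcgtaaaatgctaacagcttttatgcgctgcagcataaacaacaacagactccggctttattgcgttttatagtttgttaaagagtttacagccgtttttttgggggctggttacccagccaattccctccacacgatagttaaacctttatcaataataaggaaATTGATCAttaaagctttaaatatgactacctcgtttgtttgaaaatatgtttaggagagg
Hoxd1: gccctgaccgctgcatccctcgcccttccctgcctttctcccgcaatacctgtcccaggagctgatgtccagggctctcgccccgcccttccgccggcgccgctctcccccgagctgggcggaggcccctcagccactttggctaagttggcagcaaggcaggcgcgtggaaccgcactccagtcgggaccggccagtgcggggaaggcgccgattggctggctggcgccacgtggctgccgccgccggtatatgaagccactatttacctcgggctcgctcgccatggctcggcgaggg
The GC content was 42.3% in the Hoxb8 promoter and 69.7% in the Hoxd1 promoter.

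A single Hox gene, Hoxb4, differed markedly between the libraries in satellite glia. Replicate 2 had 1629 Hoxb4 UMIs, in 31.9% of satellite glia and up to 11 in a cell, and replicate 1 had 226, in 8.77% and up to 3 in a cell. The levels were 0.881 and 0.111 UMIs per 10000, a log2 ratio of 2.99 that 0.220% of 12294 genes reached or passed in that class. The log2 ratio was 1.11 in endothelial cells, 0.98 in myelinating and 0.81 in non-myelinating Schwann cells, 0.35 in neurons, 0.14 in mural cells and -0.16 in fibroblasts. The genes that stood highest in the same satellite comparison were Cxcl1, a chemokine, at 558 and 35 UMIs, and the response genes Csrnp1, Arid5a and Klf2, with log2 ratios of 4.14, 3.96, 3.80 and 3.61. Their part in the Hoxb4 difference was not tested. In replicate 1 alone Hoxb4 was lower in satellite glia than in Schwann cells (log2 ratio -0.64), and in replicate 2 alone it was higher (1.52), so no direction is given (edgeR adjusted p = 0.169).

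The Hox cofactors, 9 genes of the Meis, Pbx and Pknox families, were counted beside the Hox genes. In neurons against glia, 4 rose and 3 fell among 8 tested, where 64.7% of all genes were called. Meis3 rose by 1.34 ± 0.19 and Pknox2 by 1.56 ± 0.20 on the log2 scale. In endothelial cells against fibroblasts, 3 rose and 3 fell among 8, where 37.5% of all genes were called. Meis2 had 0.610 and 0.446 UMIs per 10000 in endothelial cells, against 0.108 and 0.105 in fibroblasts (2.29 ± 0.31), and Pknox2 and Meis3 fell by 2.88 and 2.11. In large A-fibre against C-fibre neurons, 4 of 9 were called and all of these rose, beside 27.5% higher and 22.7% lower over all genes, with Meis2 at 5.32 ± 0.27 (edgeR adjusted p = 5.63e-10). In the itch types against Mrgprd neurons, 1 rose and 2 fell among 9, where 28.2% of all genes were called, and Meis2 and Pknox2 fell by 3.60 and 1.05.

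The cofactors were counted in the remaining comparisons too. Among 8 tested, 3 rose and 1 fell in fibroblasts against glia (29.5% of all genes called), 1 rose and 2 fell in mural cells against fibroblasts (22.0%), and 2 rose and 1 fell in satellite glia against Schwann cells (25.9%). Among 9 tested, 5 rose and 3 fell in peptidergic C against Mrgprd neurons (45.6%).

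Polycomb and Trithorax genes, which keep Hox genes silent or active, were mostly lower in neurons than in glia, with 2 higher and 17 lower among 26 tested, beside 31.9% higher and 32.8% lower over all genes. Ezh2, the Polycomb methyltransferase, had 0.0216 and 0.0232 UMIs per 10000 in neurons, against 0.259 and 0.298 in glia. The libraries did not overlap. In endothelial cells 10 of these genes were higher and 1 lower than in fibroblasts (19.4% and 18.1% of all genes), and in fibroblasts 1 was higher and 4 lower than in glia (17.4% and 12.1%). Mural cells had 4 calls against fibroblasts, each of them higher (10.2% of all genes higher), and satellite glia 1 call against Schwann cells, lower (10.1% of all genes lower). Among 25 tested in neuron types, 5 were higher and 6 lower in large A-fibre than in C-fibre neurons (27.5% and 22.7% of all genes). Peptidergic C neurons had 5 higher and 4 lower than Mrgprd neurons (24.3% and 21.3%), and the itch types 2 calls, both lower (16.0% of all genes lower). Kdm6b, a demethylase that opposes Polycomb, had 0.130 and 0.162 UMIs per 10000 in neurons, against 0.567 and 1.42 in glia, so its glial libraries stood apart.

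Retinoic acid, Gdf11 and Cdx proteins act upstream of Hox genes in the embryo. Of 13 such genes tested, 6 were higher and 2 lower in fibroblasts than in glia, beside 17.4% higher and 12.1% lower over all genes. Aldh1a2, which makes retinoic acid, had 0.267 and 0.423 UMIs per 10000 in fibroblasts and 1 UMI in all glia of both libraries. Cyp26b1, which degrades it, had 1.55 and 1.11 in fibroblasts, against 0.00202 and 0.00846 in glia, a log2 fold change of 8.18 ± 0.36. In neurons 2 of these genes were higher and 7 lower than in glia (31.9% and 32.8% of all genes), and in satellite glia 4 were higher and 1 lower than in Schwann cells (15.8% and 10.1%). Against fibroblasts, 1 was higher and 6 lower in mural cells (10.2% and 11.8% of all genes), and all 7 called in endothelial cells were lower (18.1% of all genes lower). Of 11 tested in neuron types, 6 were higher and 2 lower in large A-fibre than in C-fibre neurons (27.5% and 22.7%). Peptidergic C neurons had 5 higher and 2 lower than Mrgprd neurons (24.3% and 21.3%), and the itch types 3 calls, each of them lower (16.0% of all genes lower).

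Of the 7 non-coding genes named within the clusters in the files, 3 or 4 were tested in a comparison. Hoxb3os, which overlaps Hoxb2 and Hoxb3 on the opposite strand, had 0.0363 and 0.0253 UMIs per 10000 in neurons, against 0.498 and 0.474 in glia (log2 fold change -4.05 ± 0.24). Its groups did not overlap, and in neurons against glia 1 of these genes was higher and 2 were lower, where 64.7% of all genes were called. With 3 or 4 genes tested, these counts say nothing beyond the genes themselves. Fibroblasts had 1 call against glia and satellite glia 1 against Schwann cells, both lower. Mural cells had 2 calls against fibroblasts and endothelial cells 1, each of them higher. Large A-fibre neurons had 1 higher and 1 lower than C-fibre neurons. Against Mrgprd neurons, peptidergic C neurons had 1 call and the itch types 3, each of them lower. Hoxb5os, antisense to Hoxb5, had no UMI in the itch types and 0.0243 and 0.0232 in Mrgprd neurons. Hoxd3os1, antisense to Hoxd3, rose by 1.95 ± 0.47 on the log2 scale in endothelial cells against fibroblasts.

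Finally, the genes most like groups 9 to 11 were sought by Pearson correlation with the summed level of these groups over 22 sums, from 11 classes in each library. These sums share libraries and differ in depth, and the correlation is a description. Among 14853 genes, Rras (r = 0.916), Tceal9 (0.890), Rnf165 (0.886) and Gstm2 (0.884) were the most alike.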

How the data were processed

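Both libraries were deposited as raw UMI counts per gene and barcode, in matrices whose gene and barcode lists carry no measurement (unit other in the deposited lists). Per the submitters' processing notes, CASAVA 1.8 and Cell Ranger 5.0.1 were used with build mm10. Per the labels, the kit was the 10x 3′ v3.1 one. The role of each step is not given in the sources used here.

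A barcode was used if it had 500 genes or more and its mitochondrial share was below 20%. Scrublet's automatic call marked 1 and 0 barcodes in replicates 1 and 2, so the highest Scrublet scores were removed at 0.8% per 1000 barcodes (555 and 1020), which left 7774 and 10270. Barcodes were gated on marker lists: a class needed 3 detected markers, a score of 0.2 and a lead of 0.1 over the next class. Neurons needed 9 of 10 markers and 5000 UMIs, a condition chosen after the data were seen because 1287 and 2000 shallow barcodes carried neuron markers. In all, 5772 and 6851 barcodes were gated and 715 and 1419 were not, and 524 and 794 neurons received a type. The members, lists and tests were chosen with earlier results of these data known.

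UMI counts were summed per class and library. Levels are UMIs per 10000 with exact Poisson 95% intervals, which cover counting error only. Classes with 20 cells in each library entered edgeR 4.0.16 (R 4.3.3; TMM factors, filterByExpr, quasi-likelihood test, terms for class and library). The broad fit had 13162 genes and 22 sums, and the neuron fit 12530 genes and 14 sums. The p-values were adjusted over all genes (Benjamini-Hochberg) and called under 0.05. SE is the standard error of the log2 fold change that the quasi-likelihood test implies. It was computed as the absolute log2 fold change divided by the square root of the test's F statistic. The classes of a library come from the same cells in suspension, so the library term pairs them by design. Perineurial cells, T or NK cells and the Trpm8 type were too few for a fit. The fit was tested on simulated data.

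The text names the Hox genes that passed in a comparison and the 5 highest of each class, and the genes of the other lists by their counts with examples chosen after their values were seen. A few genes that these rules take in are not reported here. The comparison of Mrgpra3 and Nppb/Sst with Mrgprd neurons was added after levels were seen. Alternatives were DESeq2 1.42.0 size factors and Wald test, no filter on low counts, no library term, each replicate alone, a stricter gate, 1000 genes, 10% mitochondrial UMIs, doublets kept and other neuron depths. Of 31253 gene IDs, 31184 were in GENCODE M21, which gave the overlaps, and promoters came from RefSeq. Python 3.11.15, scanpy 1.11.5, numpy 2.4.6 and scipy 1.17.1 were used.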

Additional observations from a re-analysis of the deposited data

How the results depend on the processing

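The number of Hox genes called stayed within 1.5 times its value in each of the 8 comparisons under every alternative that was run. Over the Hox genes called in a comparison, 984 of 1011 alternative tests kept direction and call, 27 lost the call and none reversed. Without the replicate block (no library term), 16 of 26 Hox genes were called in neurons against glia, against 16 with it. In peptidergic C against Mrgprd neurons 10 were called, against 13 with it. Shares over all genes were not counted under the alternatives. Leaving out a replicate leaves 1 library and no test: of 204 single-library values 43 moved by more than the spread that the SE implies and none reversed. With the stricter gate large A-fibre neurons fell to 13 and 11 cells, so that comparison gave no value there, and Mrgpra3 neurons fell to 17 and 17, so the itch comparison there held Nppb/Sst neurons alone. The summed Hox level of non-myelinating Schwann cells, 3.75 UMIs per 10000 as reported, was 3.59 with the stricter gate and 3.84 with at least 1000 genes per barcode. After thinning to 1000 in place of 2000 UMIs, the share of cells with a Hox UMI was 38.3% in neurons, 31.2% in satellite glia, 19.2% in myelinating and 26.1% in non-myelinating Schwann cells, 50.7% in fibroblasts, 57.1% in mural cells and 51.5% in endothelial cells, since fewer UMIs were drawn. Values rest on few UMIs for the genes of groups 12 and 13 and for Hoxa11 outside fibroblasts and mural cells. They rest on few cells for types of under 40 cells.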
